A study of Mus musculus with 7 samples.

Results

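The nuclear genes for subunits of the oxidative phosphorylation machinery were taken as the genes whose symbol begins with Nduf and a subunit letter (complex I), Sdh (complex II), Uqcr (complex III), Cox with a subunit number from 4 to 8 (complex IV) or Atp5 (complex V, ATP synthase). The rule found 76 of 22180 genes on the array, namely 32 of complex I, 4 of complex II, 7 of complex III, 16 of complex IV and 17 of complex V. It used symbols only, but it was set with earlier results of these data known. Another 5 subunits (Cox6c, Ndufb2, Ndufb4, Ndufs6 and Uqcr10) lay only on probe sets with several gene symbols and were not analysed here. The rule also leaves out Cyc1, the cytochrome c1 gene of complex III, which was listed with the electron carrier genes.

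The values are log2 expression of ribosome-bound RNA from medial prefrontal cortex (mPFC) on 7 Affymetrix arrays. The mice carried a Cre-dependent GFP tag on their ribosomes (Ribosome TRAP mice) and an ArcCre transgene, and all had tamoxifen around the experience. The cocaine group (4 arrays, numbered 4 to 7) had 15 mg/kg cocaine on 2 days, and the shock group (3 arrays, numbered 4 to 6) had 20 shocks of 0.5 mA lasting 2 s on 2 days. Cre from Arc limits the tag to cells in which that activity-regulated gene was on during the labelling window, and an anti-GFP antibody pulled down their ribosomes. The labels state neither age, sex nor background strain, nor how many mice an array stands for. The p-values therefore cover only the spread between arrays, which may be partly technical.

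Oxidative phosphorylation makes most of the ATP of a neuron. Complexes I and II pass electrons from NADH and succinate to coenzyme Q, complex III passes them on to cytochrome c, and complex IV hands them to oxygen. Complexes I, III and IV pump protons across the inner mitochondrial membrane, and ATP synthase uses the returning protons to make ATP, much of which synaptic transmission and ion pumping consume. A few further subunits come from the mitochondrial genome and were not part of the gene set.

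Promoters of such genes are known to be bound by nuclear respiratory factor 1, by ETS-family factors of the GABP type and by YY1. RefSeq promoters (GRCm38.p6, 250 bases before to 50 after a gene's start) were found for 63 of the 76 genes, with 68 promoters in all. The letters GCGCANGCG, a core of the nuclear respiratory factor 1 motif, stood on either strand in 19 of these 68 promoters (27.9%), against 2053 of 32851 promoters of all genes (6.25%). The ETS letters CCGGAAG stood in 25% against 8.86%, the YY1 letters AANATGGCG in 13.2% against 2.38%, and the estrogen-related receptor letters TCAAGGTCA in 2.94% against 0.423%. The searches ran on both strands, and matches of different motifs may overlap. A match is a run of letters and not a measured binding site. The next lines give 30 bases on the gene's own strand around the first match, with the matched letters in capitals. They cover the 27 subunit genes named by a rule stated under data processing, first for GCGCANGCG (8 genes) and then for CCGGAAG (6 genes). Ndufa11, described further on but outside that rule, also held GCGCANGCG and is not printed. Where the match lies on the other strand, the capitals give its reverse complement.
Sdhd (chr9:50603909-50603938, minus strand): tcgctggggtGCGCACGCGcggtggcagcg
Sdha (chr13:74350319-74350348, minus strand): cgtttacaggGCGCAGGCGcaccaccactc
Uqcrc1 (chr9:108936644-108936673, plus strand): ttccttacagCGCTTGCGCctcagactccg
Cox6a1 (chr5:115349101-115349130, minus strand): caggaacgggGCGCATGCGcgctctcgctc
Atp5o (chr16:91931601-91931630, minus strand): ctggcgcgcgCGCGTGCGCtctggcgccag
Atp5c1 (chr2:10080430-10080459, minus strand): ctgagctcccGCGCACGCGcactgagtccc
Atp5g2 (chr15:102671070-102671099, minus strand): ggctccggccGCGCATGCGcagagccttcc
Atp5g3 (chr2:73911294-73911323, minus strand): agccgcaccgCGCTTGCGCgcccagcccca
Ndufs3 (chr2:90904730-90904759, minus strand): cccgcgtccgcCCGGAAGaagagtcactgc
Sdhd (chr9:50603877-50603906, minus strand): ccgtctcctgcCTTCCGGttcacgcttcag
Sdhb (chr4:140961266-140961295, plus strand): gctcggagaaaCCGGAAGcggccttccact
Uqcrh (chr4:116075062-116075091, minus strand): agtatgccgcaCTTCCGGccaggtcgccgg
Cox8a (chr19:7217603-7217632, minus strand): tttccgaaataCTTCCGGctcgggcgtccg
Cox6a1 (chr5:115348956-115348985, minus strand): ccccatttccgCTTCCGGcgcgccggtgta

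Of the 63 genes with a promoter, 29 held 1 of these 4 motifs, 7 held 2, 1 held 3 (Sdhd) and 26 held none. Among the 18 genes with GCGCANGCG the median difference between the groups (cocaine minus shock, log2) was 0.014, and among the 45 without it 0.022. With and without CCGGAAG the medians were 0.022 (17 genes) and 0.021 (46 genes). With 1 more letter (C) required at the end of GCGCANGCG, a setting added after seeing the data, 16 of the 68 promoters matched and the medians were 0.029 (15 genes) and 0.021 (48 genes), so the order of these medians turned with the letters searched. These splits are descriptions without a test.

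The arrays carried the markers of cortical tissue. The vesicular glutamate transporter gene Slc17a7 had log2 values of 11.69 to 11.78 on the cocaine arrays and 11.58 to 11.69 on the shock arrays, and all 8 measured excitatory neuron markers lay above the dim level. That level, 5.44, is the 95th percentile of the mean values of 1373 olfactory and vomeronasal receptor genes and stands in for background. The 8 astrocyte and 12 vascular markers were above it too, so RNA of these cells was also measured. Cocaine array 6 stood apart, with correlations of 0.993 to 0.9935 to the other arrays, where every other array had a partner at 0.9964 to 0.9971. By mean level 71 of the 76 subunit genes lay above the dim level. The 5 below it were Cox7b2, Cox8b and Cox8c, isoforms known from testis or muscle, and the widely expressed subunits Cox7c and Atp5j2. Levels of different probe sets are not comparable, so no ranking of subunits by level is given.

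The comparison asks how ribosome-bound RNA differs between cells labelled during a rewarding and during an aversive experience. For oxidative phosphorylation the measured differences were small. The 76 differences ran from -0.16 (Cox6a2) to 0.27 (Cox7b2) on the log2 scale, and 64 of them were under 0.1 in size. Their median was 0.019, against 0.0016 over all genes. A higher mean in the cocaine group was found for 52 of 76 subunit genes (68.4%), against 50.9% of all genes, and without shock array 5 for 38 of 76, with a median of -0.00074. The median was 0.0084 when cocaine array 6 was left out, 0.030 for cocaine array 7 and 0.039 for shock array 6. After median centring of the arrays 57 of 76 were higher, with a median of 0.039. Centring subtracts a constant from each array, so it shifted the difference of every gene by the same amount. The share of all genes higher in that setting is not given here. Fewer cells of a type and less RNA per cell cannot be told apart in such precipitates.

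Markers of other cells moved with the groups as well. All 8 astrocyte markers and all 12 vascular markers had a lower mean in the cocaine group, with medians of -0.17 and -0.30, and 4 of the 12 vascular markers had an unadjusted p under 0.05 (limma), against 3.1% of all genes. A score was computed for each array by taking every gene's value minus its mean over the 7 arrays and averaging these over the list. The vascular score was -0.38 to 0.0093 on the cocaine arrays and -0.0096 to 0.41 on the shock arrays, and the astrocyte score -0.20 to 0.11 on the cocaine arrays and -0.018 to 0.15 on the shock arrays. Of 8 excitatory neuron markers 6 were higher in the cocaine group (median 0.048), and of 8 microglia markers 5 were lower (median -0.066). Excitatory scores were -0.0015 to 0.039 (cocaine) and -0.056 to -0.0064 (shock), without overlap. Without Neurod6, left out after seeing the data, they overlapped. Microglia scores were -0.042 to 0.00087 (cocaine) and 0.0041 to 0.056 (shock), also without overlap. All 11 immediate early genes had a higher mean in the cocaine group (median 0.50). Their scores were -0.30 to 0.62 (cocaine) and -0.91 to 0.52 (shock), with overlap, and no single gene of the 11 had groups without overlap. The part of these cells and genes in the subunit differences was not tested.

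No subunit gene passed the test. With limma over all 22180 genes and Benjamini-Hochberg adjustment, 0 of the 76 had an adjusted p under 0.05, as did 0 of all genes (0%). At an unadjusted p under 0.05 there was 1 subunit gene (1.32%), Cox5b, against 688 of all genes (3.1%). It was 3 subunit genes without cocaine array 4 (667 of all genes) and 3 without shock array 4 (671 of all genes). The values did not overlap between the groups for 2 subunit genes, Cox5b and Ndufs3, against 525 of all genes (2.37%), a share near the background.

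The intervals set limits on the measured difference between the 2 groups of arrays, and like the p-values they cover only the spread between arrays. For 60 of the 76 genes (78.9%) the 95% interval of the difference lay wholly within 1.2-fold in either direction, against 61.7% of all genes and 75.1% of the genes above the dim level. For 75 of 76 (98.7%) it lay within 1.5-fold, against 94.2% of all genes and 98.2% of the genes above the dim level. The exception was the dim gene Cox7b2 with an interval of -0.076 to 0.61. The 1.2-fold bound was set after values were seen, and these shares depend on the bound. The intervals are for single genes and are not adjusted for their number. For 38 of the 76 genes at least 2 arrays had an identical deposited value, as did 55.9% of all probe sets. The median SD within groups was 0.080 for the subunit genes, 0.093 for all genes and 0.077 for genes above the dim level.

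**Figure D1:**
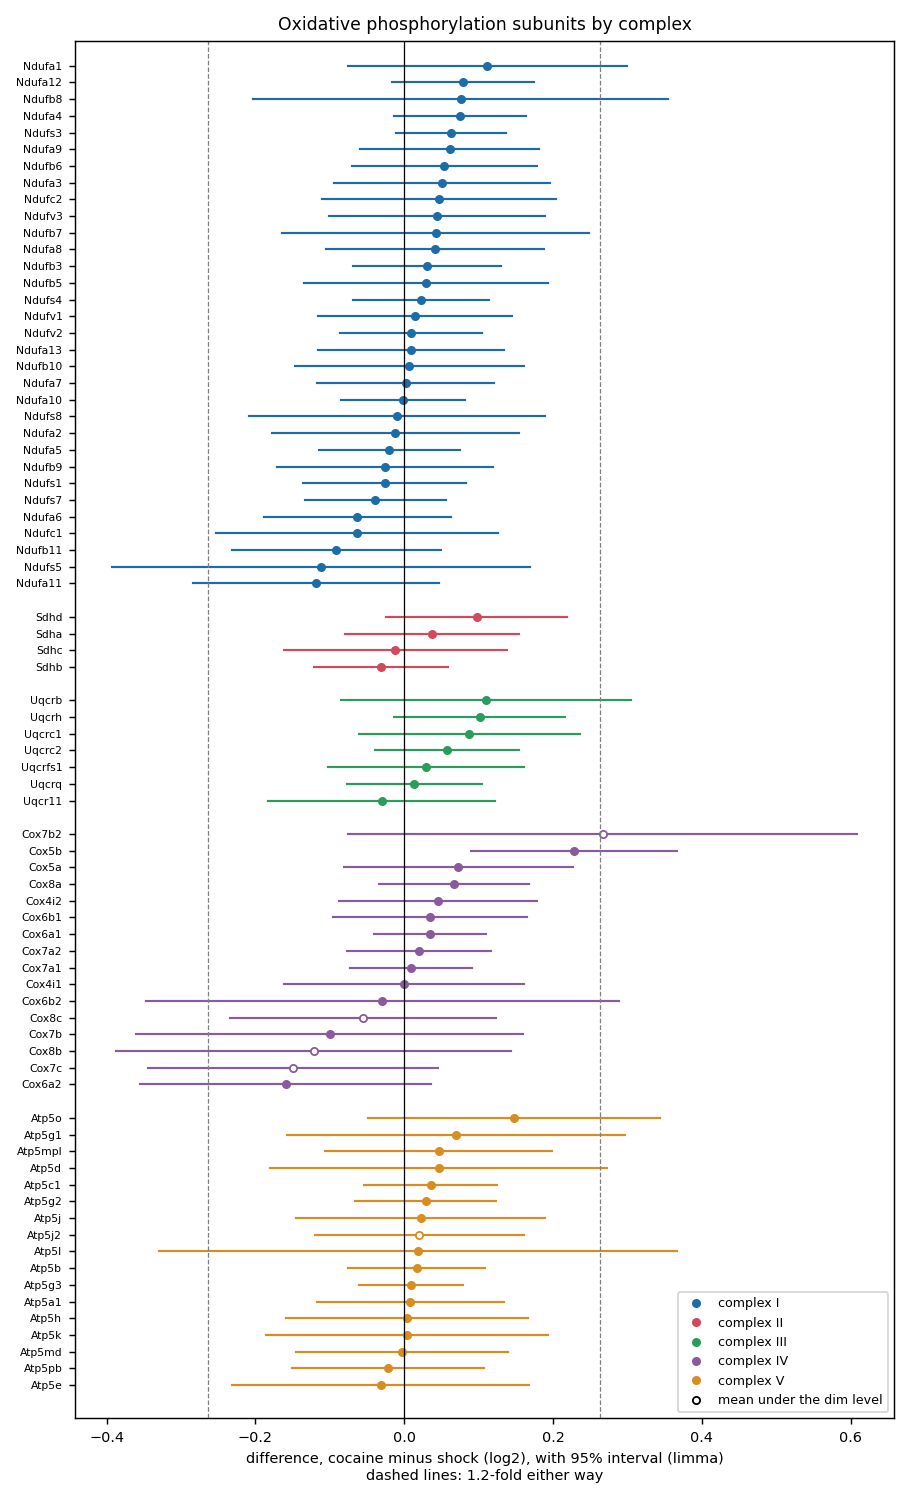
Difference between the cocaine and shock groups for each of the 76 subunit genes (log2, cocaine minus shock), with 95% intervals from limma, grouped by complex (colours) and sorted by size within each. Open points mark the 5 genes whose mean lay under the dim level, and dashed lines mark 1.2-fold either way; the interval of Cox5b is the only one that leaves out 0.

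Complex I, the entry point for electrons from NADH, had 20 of 32 genes higher in the cocaine group, with a median difference of 0.012. Its 6 measured core genes, most of which encode parts that bind NADH, the flavin or iron-sulfur clusters, had a median of -0.00014. The 26 other genes, Ndufa4 among them, had a median of 0.026. Most of them encode subunits that support and stabilise the complex. The complex I median was -0.0095 when shock array 5 was left out, -0.0036 for shock array 4, 0.0034 for cocaine array 6, 0.030 for cocaine array 7 and 0.040 for shock array 6.

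Ndufs3, a core subunit at the foot of the peripheral arm, had log2 values of 6.84, 6.84, 6.87 and 6.84 on cocaine arrays 4 to 7, against 6.80, 6.75 and 6.81 on shock arrays 4 to 6. All cocaine values lay above all shock values, within a span of 0.12 or less over the 7 arrays. The difference was 0.063 (SE 0.031), with limma's unadjusted p = 0.0836 and adjusted p = 0.938. Ndufa4, which carries a complex I name although its protein was later placed in complex IV, had 10.69, 10.63, 10.72 and 10.74 in the cocaine group, against 10.63, 10.63 and 10.59 in the shock group. Cocaine array 5 was level with shock arrays 4 and 5, and the difference was 0.075 (SE 0.037).

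Ndufa12, an accessory subunit, averaged 9.35 ± 0.04 in the cocaine group and 9.27 ± 0.05 in the shock group (SD, n = 4 and n = 3), and its second probe set had a difference of 0.052 beside the 0.078 of the first. Ndufv1, the subunit that binds NADH and flavin, averaged 9.15 ± 0.04 in the cocaine group and 9.13 ± 0.10 in the shock group, a difference of 0.014 with an interval of -0.12 to 0.14. The lowest value among the complex I differences was that of Ndufa11 (-0.12), and its second probe set gave -0.094.

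Complex II, succinate dehydrogenase, also works in the tricarboxylic acid cycle and is encoded wholly in the nucleus. Of its 4 genes 2 were higher and 2 lower in the cocaine group, with a median of 0.013. Leaving out cocaine array 5 made this median -0.00067, and leaving out cocaine array 4, shock array 4 or shock array 6 made it 0.028 to 0.029. Sdhd, one of its membrane anchors and the gene with 3 of the 4 promoter motifs, had 9.23, 9.09, 9.09 and 9.09 on the cocaine arrays, against 9.02, 8.97 and 9.09 on the shock arrays. The groups met at 9.09, a value shared by 3 cocaine arrays and shock array 6. The difference was 0.097 (SE 0.051). Sdha, the flavoprotein that oxidises succinate, averaged 10.78 ± 0.08 in the cocaine group and 10.75 ± 0.03 in the shock group, and Sdhb, the iron-sulfur subunit, averaged 9.41 ± 0.05 in the cocaine group and 9.44 ± 0.01 in the shock group. Neither difference (0.037 and -0.031) was larger in size than the gene's SD within groups (0.062 and 0.040), although the SD within the shock group alone was smaller.

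Complex III, which takes electrons from coenzyme Q to cytochrome c, had the largest median of the 5 complexes, 0.058, with 6 of 7 genes higher in the cocaine group. Uqcrh, the hinge protein that helps cytochrome c1 meet cytochrome c, had 8.96, 9.03, 8.95 and 8.91 on the cocaine arrays, against 8.93, 8.86 and 8.79 on the shock arrays. Only shock array 4 reached into the cocaine range, above cocaine array 7. The difference was 0.10 (SE 0.048, limma's unadjusted p = 0.0762, adjusted p = 0.938).

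The core proteins of the same complex differed less relative to their spread. Uqcrc1 averaged 10.41 ± 0.08 in the cocaine group and 10.32 ± 0.10 in the shock group, and Uqcrc2 averaged 10.54 ± 0.05 in the cocaine group and 10.48 ± 0.04 in the shock group. The Rieske iron-sulfur protein gene Uqcrfs1 averaged 7.23 ± 0.01 in the cocaine group and 7.20 ± 0.12 in the shock group, a difference of 0.029 that was -0.028 without shock array 4. The median of complex III was 0.031 without shock array 4 and 0.036 without cocaine array 6.

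Complex IV, cytochrome c oxidase, had 10 of 16 genes higher in the cocaine group and a median of 0.014. The median was -0.015 without shock array 5 and 0.030 without cocaine array 7. Cox5b, a zinc-binding subunit on the matrix side, had the smallest p of all 76 genes. Its log2 values were 10.54, 10.46, 10.67 and 10.58 on cocaine arrays 4 to 7, against 10.41, 10.29 and 10.30 on shock arrays 4 to 6. Every cocaine array lay above every shock array. The difference of 0.23 (SE 0.058, interval 0.089 to 0.37) corresponds to 1.17-fold, with limma's unadjusted p = 0.00619 and adjusted p = 0.938.

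A second Cox5b probe set, with a mean of 5.22 under the dim level, gave 5.20, 5.12, 5.51 and 5.43 on the cocaine arrays, against 5.06, 5.12 and 5.12 on the shock arrays. Its difference of 0.21 was close to that of the first probe set, although cocaine array 5 lay within the shock range there. Leaving out 1 array at a time moved the Cox5b difference between 0.19 and 0.27, with unadjusted p from 0.00373 to 0.0259 (limma) and adjusted p from 0.87 to 0.98. The Cox5b promoter held none of the 4 motifs. Its last 100 bases before the gene's start, shown because Cox5b is the gene with the smallest p, read as in the next line.
Cox5b (chr1:36691387-36691486, plus strand): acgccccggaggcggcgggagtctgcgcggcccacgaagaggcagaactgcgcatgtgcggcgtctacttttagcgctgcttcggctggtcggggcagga

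**Figure D2:**
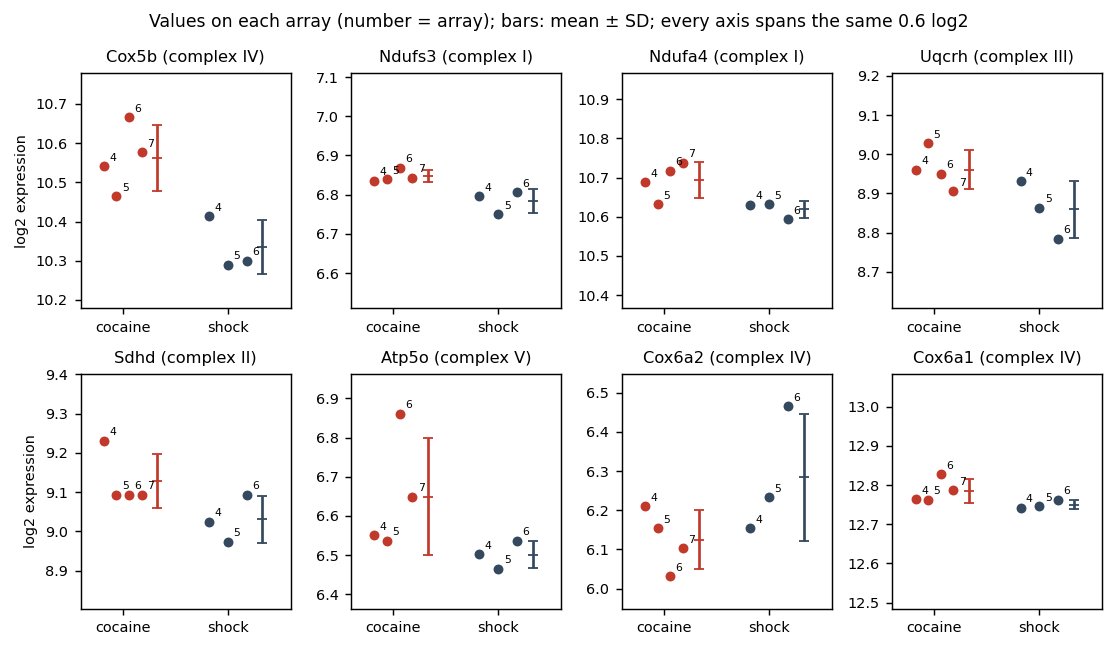
Log2 expression on each array for 8 subunit genes, with cocaine arrays (red) left of shock arrays (dark grey), each point numbered by array and bars giving mean ± SD (n = 4 and n = 3). Each vertical axis spans 0.6 log2; Cox5b and Ndufs3 are the genes whose groups do not overlap, and the high Cox6a2 value is that of shock array 6.

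Cytochrome c oxidase has subunits in a widely used and a tissue-restricted form. The 7 restricted forms (Cox4i2, Cox6a2, Cox6b2, Cox7a1, Cox7b2, Cox8b and Cox8c) had a median of -0.029, with 3 higher and 4 lower, and the other 9 genes had a median of 0.035 with 7 higher. Cox6a2, the heart and muscle form that mouse brain is known to express in parvalbumin interneurons, had 6.21, 6.15, 6.03 and 6.10 on the cocaine arrays, against 6.15, 6.23 and 6.47 on the shock arrays. Shock array 6 was the highest, and cocaine arrays 4 and 5 lay within the shock range. The difference of -0.16 (SE 0.082) was -0.069 without shock array 6.

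The inhibitory neuron markers also had their highest score on shock array 6. So did vascular (0.41), astrocyte (0.15) and microglia markers (0.056), but not excitatory neuron (-0.018) or oligodendrocyte markers (-0.096). The inhibitory score was -0.11 to 0.015 on the cocaine arrays and 0.0010, 0.019 and 0.17 on shock arrays 4, 5 and 6. Of these markers 8 of 9 were lower in the cocaine group and 6 of 9 were highest on shock array 6, as were 9 of 12 vascular markers. The 5 parvalbumin interneuron markers other than Cox6a2 scored -0.033 to 0.039 on the cocaine arrays and -0.040 to 0.030 on the shock arrays. Of the 5, 1 had its highest value on shock array 6, namely Pvalb, whose mean lay under the dim level (values of 5.15 to 5.50). The part of these cells in the Cox6a2 difference was not tested.

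The paired forms gave no difference that passed the test. Cox6a1, the widely used partner of Cox6a2, averaged 12.79 ± 0.03 in the cocaine group and 12.75 ± 0.01 in the shock group. Cox4i1 averaged 10.43 ± 0.11 in the cocaine group and 10.43 ± 0.06 in the shock group, with an interval of the difference from -0.16 to 0.16. Its lung form Cox4i2 averaged 6.85 ± 0.03 in the cocaine group and 6.80 ± 0.11 in the shock group. Cox7a2 and its muscle form Cox7a1 differed by 0.019 and 0.0095. Cox8a averaged 11.89 ± 0.06 in the cocaine group and 11.82 ± 0.02 in the shock group. Its muscle form Cox8b, which is dim, averaged 4.43 ± 0.19 in the cocaine group and 4.55 ± 0.11 in the shock group. Cox7b2, the testis form of Cox7b and also dim, had 4.86 on cocaine array 4 and 4.32 to 4.50 on the other cocaine arrays, against 4.07 to 4.32 on the shock arrays.

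Complex V, ATP synthase, had 14 of 17 genes higher in the cocaine group and a median of 0.018, which became 0.00021 when shock array 5 was left out, 0.0010 for cocaine array 6, 0.032 for cocaine array 7 and 0.042 for shock array 6. The 5 genes of the catalytic head and central stalk had a median of 0.017, and the largest difference among them in size was 0.046. Atp5b, which carries the catalytic sites, had 12.04 to 12.07 on the cocaine arrays and 11.96, 12.05 and 12.09 on the shock arrays. The cocaine values lay inside the shock range, and the interval of the difference ran from -0.075 to 0.11. Atp5c1, the rotating gamma subunit, averaged 6.88 ± 0.0035 in the cocaine group and 6.85 ± 0.061 in the shock group, with an identical value on cocaine arrays 6 and 7 and shock arrays 4 and 6. Its difference of 0.035 was 0.00025 without shock array 5.

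Atp5o, which joins the head to the peripheral stalk, had 6.55, 6.54, 6.86 and 6.65 on the cocaine arrays, against 6.50, 6.47 and 6.54 on the shock arrays. The difference of 0.15 (SE 0.082, limma's unadjusted p = 0.117, adjusted p = 0.938) was 0.077 without cocaine array 6, whose correlations to the other arrays were the lowest. Atp5g1, Atp5g2 and Atp5g3 encode the same mature subunit of the rotating c ring from separate genes. Their differences were 0.070, 0.029 and 0.0096, and the interval of Atp5g3 was -0.060 to 0.079. The second probe set of Atp5g2, with means of 9.92 in both groups, gave -0.0031. Without cocaine array 6 the Atp5g2 difference was 0.00083, and without shock array 5 that of Atp5g3 was 0.00021. Atp5g1 differed by -0.017 without shock array 6.

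The genes varied together between single arrays more visibly than between the groups. Their score was 0.037, -0.0069, 0.029 and -0.028 on cocaine arrays 4 to 7, and 0.0056, -0.054 and 0.019 on shock arrays 4 to 6. The difference of the group means, 0.017, was smaller than the SD within groups of 0.034. Shock array 5 had the single lowest value for 30 of the 76 genes (39.5%), where it had the lowest value for 13.1% of all genes and 13% of the genes above the dim level. These 30 were 14 of 32 genes of complex I, 2 of 4 of complex II, 1 of 7 of complex III, 5 of 16 of complex IV and 8 of 17 of complex V. The single highest value fell on cocaine array 6 for 23 genes (30.3%, against 19.6% of all genes and 13.2% of those above the dim level) and on cocaine array 4 for 18 (23.7%, against 13.2% and 12.4%).

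**Figure D3:**
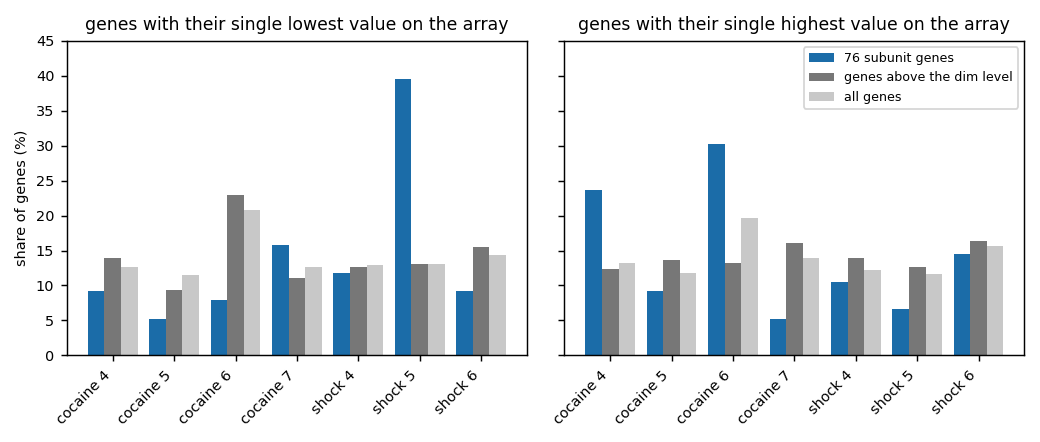
Share of genes (%) with their single lowest (left) or single highest (right) value on each array, for the 76 subunit genes, the genes above the dim level and all genes. The tallest bar is that of shock array 5, which held the lowest value of 39.5% of the subunit genes; genes with a tied extreme count for no array.

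Complex III did not follow this order. Its score was 0.043, 0.043, 0.013 and -0.0083 on the cocaine arrays, against -0.034, -0.011 and -0.046 on the shock arrays, so the groups just failed to overlap, and shock array 5 had the highest of the shock scores. In complexes I, II, IV and V shock array 5 had the lowest score of all 7 arrays (-0.056, -0.057, -0.049 and -0.073). The scores carry no test.

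**Figure D4:**
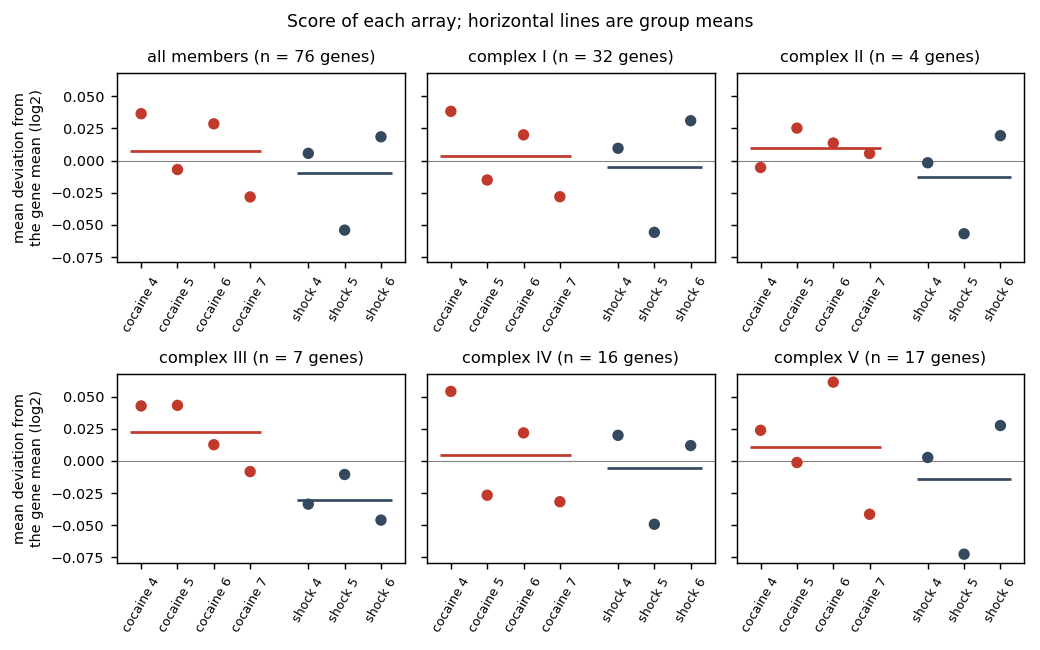
Score of each array for all 76 genes and for each complex, as the mean over genes of the log2 value minus the gene's mean over the 7 arrays, with cocaine arrays (red) left of shock arrays (dark grey) and lines at the group means. Only the complex III scores separate the groups, and shock array 5 is lowest in the other panels.

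Of the 5 other mitochondrial lists, 3 were lowest on shock array 5 and 2 were not. Mitochondrial ribosomal protein genes scored -0.045 there and assembly factors of the complexes -0.052, and coenzyme Q and electron carrier genes -0.059, each the lowest of the 7 arrays. Tricarboxylic acid cycle genes scored -0.0066, above cocaine array 4 (-0.055) and shock array 4 (-0.043), and regulators of mitochondrial biogenesis 0.0074, with their lowest score on cocaine array 4 (-0.031). Glycolysis genes scored 0.049 on shock array 5, their highest value. Excitatory neuron markers scored -0.056 on shock array 5 and -0.018 to 0.039 on the others, but 3 of the 8 (Neurod6, Nrgn and Grin2a) were lowest there, Camk2a was highest, and without Neurod6 (a setting added after seeing the data) the score was -0.0077, above shock arrays 4 and 6 and cocaine array 4. On shock array 5 astrocyte markers scored 0.13 and vascular markers -0.0096, and immediate early genes scored 0.52 there against -0.77 and -0.91 on the other shock arrays. The part of these cells in the subunit scores was not tested.

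None of the related lists had a member past the adjusted threshold. Assembly factors had 27 of 42 genes higher in the cocaine group (median 0.015), coenzyme Q and electron carrier genes 11 of 15 (0.025), mitochondrial ribosomal proteins 47 of 71 (0.019), tricarboxylic acid cycle genes 12 of 17 (0.013), glycolysis genes 11 of 14 (0.025) and regulators of mitochondrial biogenesis 8 of 12 (0.0035). At an unadjusted p under 0.05 there were 1 glycolysis gene, 1 tricarboxylic acid cycle gene and 2 mitochondrial ribosomal protein genes, and 0 in the other 3 lists, against 3.1% of all genes. The 2 of 71 mitochondrial ribosomal protein genes lay near that share.

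Hk2, a hexokinase that can bind to mitochondria, averaged 5.69 ± 0.14 in the cocaine group and 5.94 ± 0.12 in the shock group (difference -0.25, limma's unadjusted p = 0.03, adjusted p = 0.938). Suclg2, a subunit of succinyl-CoA ligase, differed by -0.19 (unadjusted p = 0.0476 by limma). Mrpl52, of the large mitochondrial ribosomal subunit, differed by -0.17 with no overlap of the groups, and Mrpl36 by 0.16. Idh3a, the catalytic subunit of NAD-dependent isocitrate dehydrogenase, had 10.43 to 10.46 on the cocaine arrays against 10.34 to 10.42 on the shock arrays, with no overlap and a difference of 0.066. The remaining genes taken by the rule were Ndufaf4 (0.11), Atpaf2 (0.091), Pdss2 (0.14), Coq5 (0.061), Pfkl (0.071), Polrmt (0.058) and Ppargc1b (-0.089).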

How the data were processed

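The authors deposited log2 expression values of 41345 probe sets on 7 arrays. That scale was read from the values (1.12 to 13.44), and array medians were 5.44 to 5.47. Transcriptome Analysis Console is the tool listed in the submitters' processing notes. How the signals were summarized, background-corrected and normalized is not given in the sources used here. Normalization between arrays removes changes in total RNA. Arrays have no read depth, and their number limits the precision.

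Platform annotation gave 1 symbol to 23521 probe sets, several to 1814 and none to 16010. Each gene kept its probe set of highest mean, which left 22180 genes. The 76 members had 85 probe sets, all matched to RefSeq genes by Entrez identifier. Groups came from the labels.

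Cocaine minus shock was tested with limma 3.58.1 (lmFit and eBayes, R 4.3.3, two-sided, no covariate) and Benjamini-Hochberg adjustment over all genes. The text names 3 genes per complex and 2 per related list of smallest unadjusted p, plus a fixed set of isoforms and catalytic subunits. Ndufa11 and the markers Pvalb, Neurod6, Nrgn, Grin2a and Camk2a were named after their values were seen. The motif letters and the 1.2-fold bound were also set after values were seen. Members, lists and rules were chosen with earlier results of these data known. Simulated data with 22180 genes recovered 94% of 100 genes changed 2-fold and 77% of 100 changed 1.5-fold, with 12 unchanged genes among 183 calls (6.56%). The simulated noise was normal and independent between genes, without the shared array shifts and tied values of the real data. These rates therefore check the code and do not give the power of the real comparison. Same-numbered arrays were checked for pairing. Alternatives were each array left out, 2 normalizations, dim genes left out, the mean of probe sets, other moderation, array weights and a replicate block. For the medians by complex, Ndufa4 was also counted in complex IV.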

Additional observations from a re-analysis of the deposited data

Results flagged for a closer look

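For 7 of 33 measures (27 named subunit genes and 6 scores), 1 cocaine array lay far from the other 3 by Dixon's 95% limit for 4 samples (the gap to the nearest array as a share of the range), where chance gives about 1 in 20 measures, here 1.65. In 5 of the 7 at least 2 cocaine arrays had an identical value. Cocaine array 4 was highest for Sdhd and Cox7a2 (a gap of 1.0 of the range in each, the other 3 arrays being equal). Cocaine array 6 was lowest for Uqcrfs1 and cocaine array 7 lowest for Cox7a1 (1.0 in each). Cocaine array 6 was highest for Atp5g2 (0.9415) and Ndufv1 (0.9224), and cocaine array 5 was lowest for Cox4i2 (0.9073). The 3 shock arrays were too few for this check.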

How the results depend on the processing

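No gene and no subunit passed the adjusted threshold with any alternative run (limma). The number of subunit genes at an unadjusted p under 0.05 was 1, and it was 2 after median centring, 2 with trend and robust moderation, and 1 to 3 with an array left out, beside 761, 660 and 531 to 788 of all 22180 genes. Cox5b was among them each time. The median of all subunit genes ran from -0.00074 to 0.039 with an array left out, that of complex I from -0.0095 to 0.040, of complex II from -0.00067 to 0.029, of complex III from 0.031 to 0.070 and of complex IV from -0.015 to 0.030. The other alternatives kept the sign of these medians. Median centring shifts every gene's difference by the same amount. It gave 0.032 for complex I, 0.033 for complex II, 0.078 for complex III, 0.035 for complex IV and 0.038 for complex V. Leaving out dim genes gave 0.027 for complex IV. Counting Ndufa4 in complex IV gave 0.0095 for complex I and 0.019 for complex IV. Quantile normalization gave 0.0076 for complex II. Of 27 named subunit genes, 19 kept their sign throughout, but 15 of these 19 moved by over 1.5 times with an array left out, for example Atp5c1 (0.00025 to 0.053), Sdhb (-0.044 to -0.0062), Sdha (0.013 to 0.070), Uqcrh (0.064 to 0.14) and Cox7b2 (0.15 to 0.33). The other 4 were Cox5b, Ndufs3, Ndufa4 and Cox8a. The 8 remaining genes turned with an array left out, with ranges of -0.018 to 0.044 for Atp5b, -0.017 to 0.12 for Atp5g1, -0.036 to 0.050 for Cox4i1, -0.012 to 0.097 for Cox4i2, -0.015 to 0.025 for Cox7a1, -0.0097 to 0.047 for Cox7a2, -0.040 to 0.063 for Ndufv1 and -0.028 to 0.087 for Uqcrfs1. After quantile normalization Cox4i1 differed by -0.0075. The cause of these turns was not tested. Over all genes the count at an unadjusted p under 0.05 was 688, and 453 with dim genes left out, where fewer genes were tested.

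Deviations of same-numbered arrays correlated at 0.13, 0.064 and 0.16 (numbers 4, 5 and 6), and those of the other pairs at -0.12 to 0.090. Not every same-numbered pair passed 0.1, and the main fit used no pairing. Whether same-numbered arrays were handled together is not stated in the labels and was not tested. Shock array 5 correlated more with cocaine array 7 (0.090) than with its own number. The replicate block, in which cocaine array 7 has no partner and adds nothing to the difference, gave 3 subunit genes and 915 of all genes at an unadjusted p under 0.05 and 0 past the adjustment. Its medians were 0.030 for complexes I and IV and 0.032 for complex V. Leaving out Atp5s and Atp5sl was not run, since neither was among the genes. With 4 and 3 arrays, the number of arrays limits the precision.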
